A study of Mus musculus with 28 samples.

Results

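The genes described here are 36 genes of the unfolded protein response and of the protein-folding machinery of the endoplasmic reticulum (ER), out of 45706 genes in the expression tables of mIMCD-3 cells. They were taken by symbol, through the Ensembl identifiers of the tables, and all 36 had a level above 0 in each of the 28 libraries, the lowest single value being 2.07 TPM (transcript abundance scaled for transcript length and for the total of the library). They fall into 5 roles, namely 8 stress sensors and factors that activate them, 8 genes of the BiP/GRP94 chaperones and their cofactors, 7 lectin chaperones, disulfide isomerases and a prolyl isomerase, 10 genes of ER-associated degradation (ERAD), and 3 genes of the translocon.

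mIMCD-3 is a line of inner medullary collecting duct cells from an SV40 transgenic mouse. The groups were polyclonal wild-type cells, WT5, which is a monoclonal wild-type line sorted as a single cell from them, and 5 subclones (subclone 1 to subclone 5) that were in turn sorted as single cells from WT5. Each group had 4 libraries of untreated cells without any knockout, with RNA taken 4 days after the cells had become confluent, and each clonal line stands for 1 clone. The question of the comparison was how far wild-type cells of one cell line differ from each other.

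When unfolded proteins accumulate in the ER, 3 sensors in its membrane respond: IRE1 (encoded by Ern1), which splices the mRNA of the transcription factor XBP1, PERK (Eif2ak3), which slows translation and favours synthesis of the transcription factor ATF4, and ATF6, which is cut in the Golgi by the proteases encoded by Mbtps1 and Mbtps2. Spliced XBP1 and cleaved ATF6 raise the transcription of ER chaperones and of ERAD genes, whereas ATF4 acts on amino acid metabolism, redox balance and stress-linked genes. In renal tubular cells, channels, transporters and other membrane glycoproteins fold in this compartment. The TPM of a gene adds up its transcripts and does not separate spliced from unspliced Xbp1, so it is no measure of IRE1 activity.

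Depth cannot be read from TPM, and no counting error can be given. Among 14 markers of collecting duct and renal epithelium, 12 were above 0 in every polyclonal and every WT5 library, with a summed level of 1862 to 2147 TPM in polyclonal cells and 3278 to 3361 TPM in WT5. Aqp2, the vasopressin-regulated water channel of principal cells, was listed at 0 in all 28 libraries. Avpr2, the vasopressin receptor, had 10.6 ± 0.583 TPM (SD, n = 4) in polyclonal cells and 0.06 ± 0.0744 TPM in WT5. Cdh1 (145 ± 5.45 and 97.6 ± 1.55 TPM), Gata3 and Scnn1a were also lower in WT5, while the keratin genes Krt8 (360 ± 25.8 and 1005 ± 38.7 TPM), Krt18 and Krt19 made up most of the higher sum. Summed levels of the podocyte, endothelial, intercalated cell and fibroblast markers were at most 2.07 TPM in any library, those of leukocyte markers at most 4.68 TPM, and those of proximal tubule markers 1.45 to 1.62 TPM in polyclonal cells, 3.57 to 4.6 TPM in WT5 and up to 10.26 TPM in the subclones. Polyclonal libraries held 18681 to 19272 genes above 0 and WT5 libraries 16318 to 16536. The methods describe polyclonal and WT5 libraries as sequenced at different times with different read lengths, so the line and the sequencing run cannot be told apart in that comparison, and the subclones stand in a separate table. The libraries of a group are called biological replicates in the methods and technical replicates elsewhere, so the p-values below measure only the spread between these libraries.

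Members made up 0.588% of all TPM in polyclonal cells and 0.496% in WT5. In bulk RNA, fewer cells with a transcript and less of it per cell cannot be told apart. Their summed level was 5878 ± 110 TPM (SD, n = 4) in polyclonal cells, 4958 ± 48.5 TPM in WT5 and 4442 ± 79.5, 4239 ± 330.1, 4194 ± 130.2, 4264 ± 47.3 and 4845 ± 296 TPM for subclones 1 to 5 in that order. The lowest polyclonal library (5817 TPM) lay above the highest WT5 library (4995 TPM). All libraries of subclones 1 to 4 lay under those of subclone 5, whose lowest was 4595 TPM, and the widest group was subclone 2, because its second replicate reached 3774 TPM against 4241 to 4514 TPM in the other 3.

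**Figure D1:**
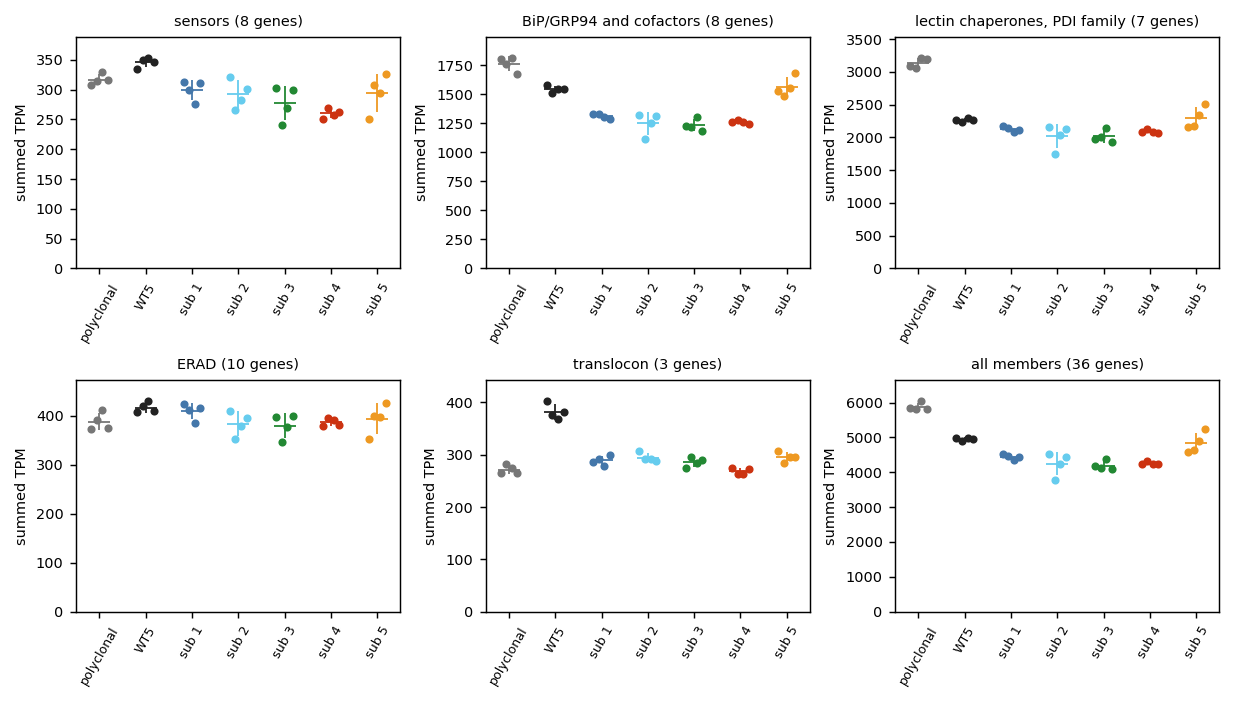
Summed TPM of the members of each role and of all 36 members, for 7 groups of 4 libraries (points are libraries, horizontal marks the group means, vertical bars the SD). The lectin chaperones and disulfide isomerases go from about 3140 TPM in polyclonal cells to 2269 TPM in WT5, and the BiP/GRP94 genes reach 1564 TPM in subclone 5 against 1235 to 1315 TPM in the other subclones.

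The lectin chaperones and disulfide isomerases carried most of this sum, with 3140 ± 74.9 TPM in polyclonal cells and 2269 ± 25.6 TPM in WT5, and the BiP/GRP94 genes came next with 1763 ± 63.3 and 1545 ± 28.9 TPM. The sensors were low and had 317 ± 9.12 TPM in polyclonal cells and 346 ± 8.15 TPM in WT5. As TPM is scaled by length, levels of different genes can be set side by side. The most abundant member in WT5 was Calr (calreticulin, a lectin chaperone) with 688 ± 5.6 TPM, followed by Hspa5 (BiP) with 510 ± 14.5 TPM and Hsp90b1 (GRP94) with 493 ± 15.1 TPM; the last 2 do not differ beyond their spread. At the other end stood Ern1 with 12.1 ± 1.49 TPM and Derl3 with 2.41 ± 0.404 TPM.

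WT5 was compared with polyclonal cells to see what the sorting of a single cell leaves of the average of the line. Differences are given as log2 TPM, with each library centred on the median of its tested genes, and with the standard error (SE) of the limma fit. A gene passed at an adjusted p below 0.01 and was called where the difference was in addition larger than 1. Of the 36 members, 25 passed, 5 of them higher and 20 lower in WT5, while 65.4% of the 13723 genes tested passed, 31.1% higher and 34.3% lower. The median difference of the members was -0.30 and that of all genes -0.05.

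These directions are relative to the median gene, whose level was 0.29 log2 units higher in WT5 than in polyclonal cells. In TPM without centring, 12 of the 20 lower members passed as lower, 6 kept the sign without passing and 2 (Derl1 and Os9) reversed, and 27 members passed in all, 15 higher and 12 lower; among the genes called, the share higher in WT5 went from 48.5% to 66.5%. When genes at 0 in some libraries were kept, with a pseudocount of 0.1, the median of 23738 genes was 0.63 lower in WT5. There 15 of the 20 lower members turned to the other side of this median, with 29 members passing as higher and 3 as lower. Here and below, the shares of all genes that passed in each direction are not given for either scaling. The counts under these scalings therefore do not single out the members. Canx, Dnajb9 and Derl3 passed as lower, and Ern1, Eif2ak3 and Sec61b as higher, under both of these scalings, under quantile normalization, after removal of mitochondrial, ribosomal protein and predicted genes, and with each gene centred on the genes of its 10-Mb stretch of chromosome; Wfs1 did so too except in the last of these, where it differed by -0.08.

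Called members numbered 5, or 13.9% of them, against 23.2% of all genes. By z-scores, the scale of the methods, 0 members and 5.43% of all genes were called by limma. The z-scores were computed here within each library, a choice that the methods do not state. A z-score difference of 1 stands for an 8.56-fold difference here. The largest z-score difference of a member was 0.79, 31 members had an unadjusted p below 0.05 on this scale, and the unequal-variance test also called 0. Here and below, the share of all genes with an unadjusted p below 0.05 is not given.

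**Figure D2:**
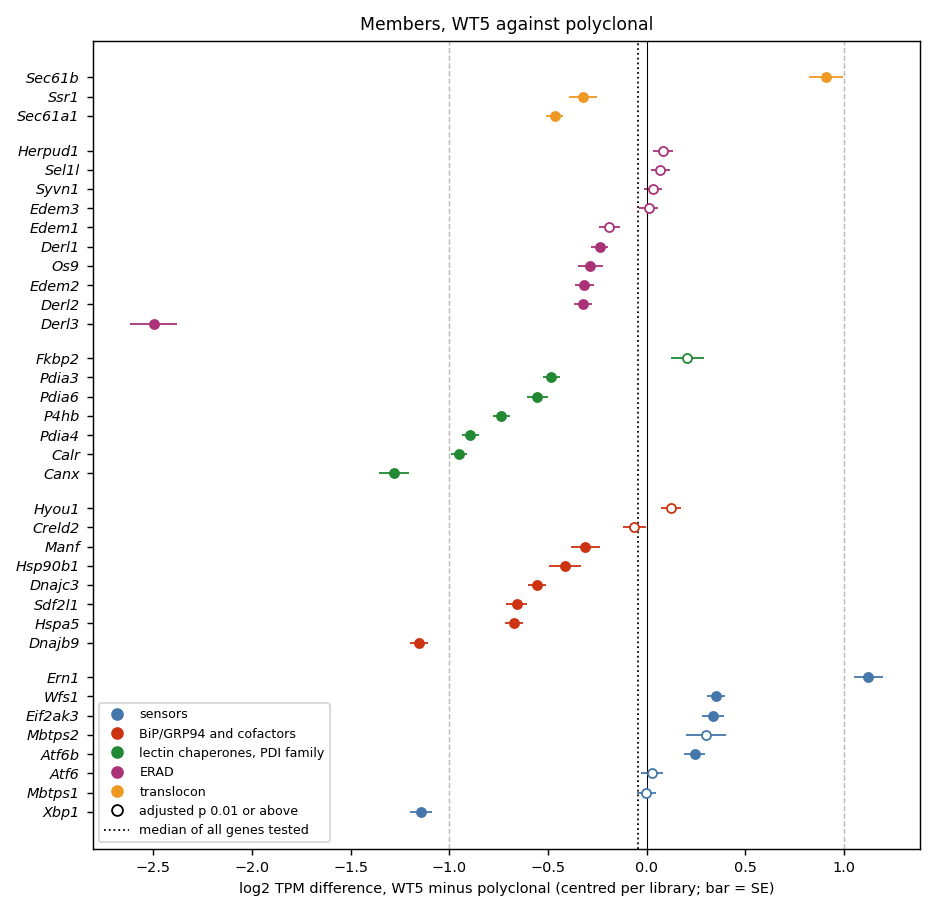
Difference of log2 TPM, WT5 minus polyclonal, of each member (points, with SE as bars), ordered within the 5 roles; open points have an adjusted p of 0.01 or above, the dotted line is the median of all 13723 genes tested and dashed lines mark -1 and 1. The chaperone and isomerase genes lie mostly left of 0, Derl3 at -2.499 farthest, and Ern1 (1.12) and Sec61b (0.91) lie farthest to the right. Without centring 15 members pass as higher and 12 as lower, and the shares of all genes are not given for that scaling.

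Among the sensors and their activators, 4 of 8 passed as higher in WT5, 1 as lower, and the median was 0.27. The outlying gene was Xbp1, whose transcription factor drives chaperone and ERAD genes. Its TPM was 112, 116, 115 and 104 in polyclonal cells and 64.6, 63.6, 59.7 and 59.6 in WT5, so the groups do not overlap. Here and below, the share of all genes whose groups separate is not given, so separation does not single out a member. Xbp1 fell by 1.14 (SE 0.0568, adjusted p = 1.05e-06). With genes at 0 kept, it was still lower but did not pass.

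Ern1, the splicing sensor, moved the other way. Its TPM was 4.47, 4.37, 4.63 and 4.57 in polyclonal cells and 11.3, 11.4, 14.3 and 11.2 in WT5, a difference of 1.12 (SE 0.0725, adjusted p = 4.07e-06). All WT5 libraries were above all polyclonal ones, and the third WT5 replicate stood apart from the other 3. Eif2ak3, the kinase PERK, had 27.4, 25.7, 25.6 and 26.9 TPM in polyclonal cells and 38.6, 38.8, 41.7 and 44.1 TPM in WT5. The groups are separate, and the difference was 0.34 (SE 0.0569, adjusted p = 0.000939). For Atf6 the 4 polyclonal libraries had 17.2, 16.5, 19.2 and 18.8 TPM and the WT5 libraries 21.5, 21.7, 24.2 and 21.7 TPM. That gap is about the size of the shift of the median gene, and the centred difference was 0.03 (SE 0.0546, adjusted p = 0.687). Wfs1, an ER membrane protein that restrains ATF6, and Atf6b, a close relative of ATF6, passed as higher by 0.35 and 0.24, whereas Mbtps2 (0.30, adjusted p = 0.027) did not pass.

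Of the 8 BiP/GRP94 genes, 0 passed as higher and 6 as lower, with a median of -0.49 (2 and 4 without centring, 7 and 1 with genes at 0 kept). Hspa5 encodes BiP, the ER member of the HSP70 family, which also holds the sensors inactive. Its 4 polyclonal libraries had 647, 669, 692 and 650.4 TPM and the WT5 libraries 531, 504, 502 and 501 TPM. No WT5 library reached the polyclonal range, and Hspa5 fell by 0.67 (SE 0.0456, adjusted p = 5.29e-06). Dnajb9, a BiP cochaperone of the J-domain family, had 47.3, 42.7, 44.2 and 42.9 TPM in polyclonal cells and 23.9, 23.9, 24.6 and 24.9 TPM in WT5. It fell by 1.15 (SE 0.0455, adjusted p = 3.27e-07), the most of this role. The J-domain cochaperone Dnajc3, which also inhibits PERK, fell by 0.56, Sdf2l1 by 0.66, the secreted stress protein Manf by 0.31 and Hsp90b1 by 0.41. For Hsp90b1 the WT5 libraries, with 480.4 to 512 TPM, lay within the polyclonal range of 479 to 625 TPM. Hyou1, a nucleotide exchange factor of BiP, differed by 0.12 (adjusted p = 0.0515) and Creld2 by -0.06 (adjusted p = 0.351), and neither passed.

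Lectin chaperones and disulfide isomerases gave the lowest median of the 5 roles, -0.74, with 6 of 7 genes lower and 0 higher (5 and 1 without centring, 1 and 3 with genes at 0 kept). Canx, calnexin, holds newly made glycoproteins in the ER until they are folded. Its TPM was 533, 463, 513 and 596 in polyclonal cells and 266, 266, 267 and 257 in WT5. The ranges are far apart, and Canx fell by 1.28 (SE 0.0749, adjusted p = 2.44e-06). Calr, its soluble relative, fell by 0.95 (SE 0.0399), from 1087 ± 35.2 to 688 ± 5.6 TPM. The disulfide isomerases followed with -0.89 for Pdia4, -0.74 for P4hb, -0.56 for Pdia6 and -0.48 for Pdia3. Fkbp2, a prolyl isomerase, was the only one of the 7 that did not pass, at 0.21 (adjusted p = 0.0524).

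In ERAD, which carries misfolded proteins back to the cytosol for degradation, 5 of 10 genes passed as lower and 0 as higher (1 and 4 without centring, 1 and 9 with genes at 0 kept). Derl3, a derlin of the retrotranslocation channel, showed the largest difference of all 36 members. Its 4 polyclonal libraries had 9.64, 11.3, 11.2 and 12.2 TPM and the WT5 libraries 2.07, 2.98, 2.4 and 2.19 TPM. It fell by 2.499 (SE 0.118, adjusted p = 8.21e-07), the groups being separated by more than their ranges. The other derlins passed with smaller differences, -0.24 for Derl1 and -0.32 for Derl2, as did the lectin Os9 (-0.29) and Edem2 (-0.32). Herpud1, Syvn1 and Sel1l, the scaffold and ligase of the main ERAD complex, differed by 0.08, 0.03 and 0.07 and did not pass, nor did Edem1 at -0.19 (adjusted p = 0.0128).

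The translocon, through which secretory proteins enter the ER, split. Sec61b had 95.0, 111, 99.96 and 90.3 TPM in polyclonal cells and 246, 225.0, 211 and 226 TPM in WT5. It rose by 0.91 (SE 0.0868, adjusted p = 3.59e-05), and all WT5 libraries were above all polyclonal ones. Of the 50-base stretches of its longest transcript, 15.3% occur in transcripts of other genes, mainly Gm10320 and Gm5870, which had 0.92 and 3.61 TPM in polyclonal cells and 0.0775 and 0 TPM in WT5, and the split of reads between them was not tested. Sec61a1, the channel itself, fell by 0.46, from 146 ± 4.31 to 129 ± 2.95 TPM, and Ssr1, of the translocon-associated complex, by 0.32.

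Promoters were searched for the sequence by which ATF6 and XBP1 are known to act. The ER stress element (ERSE) consists of CCAAT and CCACG separated by 9 bases, on either strand, and was looked for in the 250 bases before the RefSeq start of each gene (mouse assembly GRCm38.p6) and the 50 bases after it. Of 31 members with a promoter in this set, 9 held it (29.0%), against 37 of 27025 genes (0.137%) and 39 of 32851 promoters (0.119%). The members were picked as genes of this response, so their higher share follows from the choice and tests nothing in these data. No promoter was given for Atf6, Derl1, Hyou1, Manf and Sec61a1. The matches are printed 5′ to 3′ on the strand of the motif, with the bases of the motif in capitals, and positions count from the first base of the transcript, at the end of the match that lies farther from it.
Calr, 162 bases upstream, opposite strand: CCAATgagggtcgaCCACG
Canx, 145 bases upstream, gene strand: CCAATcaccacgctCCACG
Creld2, 126 bases upstream, opposite strand: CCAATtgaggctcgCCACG
Derl3, 156 bases upstream, opposite strand: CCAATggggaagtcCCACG
Dnajc3, 105 bases upstream, gene strand: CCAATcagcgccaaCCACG
Hsp90b1, 107 bases upstream, opposite strand: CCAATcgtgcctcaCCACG
Hsp90b1, 212 bases upstream, gene strand: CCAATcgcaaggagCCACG
Hspa5, 65 bases upstream, gene strand: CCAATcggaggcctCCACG
Pdia6, 98 bases upstream, gene strand: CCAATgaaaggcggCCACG
Syvn1, 44 bases upstream, gene strand: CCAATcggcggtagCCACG
The first 5 and last 5 bases are alike by the definition of the search, whereas the spacers differ from gene to gene.

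The Hspa5 promoter is shown whole because BiP is the best-known target of this pathway. It covers chr2:34771840-34772089 of GRCm38.p6 on the plus strand, the 250 bases before the RefSeq start, with the ERSE in capitals.
Hspa5: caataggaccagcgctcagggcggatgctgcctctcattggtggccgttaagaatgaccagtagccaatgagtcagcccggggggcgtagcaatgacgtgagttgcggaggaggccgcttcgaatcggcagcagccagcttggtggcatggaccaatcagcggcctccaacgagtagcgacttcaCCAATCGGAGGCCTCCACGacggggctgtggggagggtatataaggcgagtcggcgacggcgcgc

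Herpud1 held the related ERSE-II instead (ATTGG and CCACG separated by 1 base), printed here because it was the only member among the 12 genes (0.0444%) with this form.
Herpud1, 52 bases upstream, gene strand: ATTGGgCCACG
The UPR element (UPRE), searched as an exact match to a single form, was in the promoters of 193 genes (0.714%) but of 0 members. Other forms of this element were not looked for, so members, Hspa5 included, may still hold one.

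Of the 9 members with an ERSE, 7 passed as lower in WT5 and 0 as higher, with a median of -0.56. Among all genes, 34.3% passed as lower and 31.1% as higher. Creld2 and Syvn1 (0.03, adjusted p = 0.563) did not pass. Without centring, 6 of the 9 passed as lower and 2 as higher, and with genes at 0 kept, 2 (Canx and Derl3) passed as lower and 6 as higher. Of the 22 members with a promoter but no exact ERSE match, 10 passed as lower and 5 as higher, with a median of -0.10. Elements with a mismatch were not looked for, so these members may still hold one. Outside the members, 28 genes held an ERSE and 7 of these could be tested, of which 1 passed as lower and 2 as higher, with a median of 0.16. A match is a run of letters and not evidence of binding.

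Genes of the same pathways outside the members were taken from 7 lists. These lists, like the members, were chosen with earlier results of these data known. The list named the PERK to ATF4 branch stood on the other side from the chaperones, with 15 of 23 genes higher and 2 lower in WT5. Its median was 0.75, and 10 of its genes were called higher and 1 lower. Among all genes, 31.1% passed as higher and 34.3% as lower, and 11.3% were called higher and 12% lower. Whether PERK acted on the genes of this list was not tested. Gdf15, a stress-induced cytokine, was at 329 ± 7.86 TPM in WT5 and 4.78 ± 0.878 TPM in polyclonal cells (difference 5.84, SE 0.126). The hormone gene Fgf21 had 4.57 ± 0.574 and 0.315 ± 0.175 TPM (3.78, SE 0.448), and Chac1, which degrades glutathione, 73.0 ± 1.58 and 8.15 ± 1.13 TPM (2.88, SE 0.1). Atf4 itself, with 517 ± 8.99 and 207 ± 7.10 TPM, rose by 1.03 (SE 0.0382), and Ddit3, which encodes CHOP, by 0.90 (SE 0.0671). Under the other scalings, 15 to 22 of the 23 genes passed as higher and 0 to 4 as lower, and the shares of all genes are not given for them.

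In the remaining 6 lists, lower genes outnumbered higher ones after centring, but not in most of them without it, and with genes at 0 kept higher genes outnumbered lower ones in all 6. Of 20 other UPR signalling genes tested, 12 passed as lower and 5 as higher, against 8 and 7 without centring. Creb3l4, a transcription factor of the ATF6 type, had 1.88 ± 0.269 TPM in polyclonal cells and 0.16 ± 0.152 TPM in WT5 (-4.41, SE 0.705), Sec24d, a coat protein of ER exit sites, differed by -2.12 and Creb3l2 by -1.41. Among 31 calnexin cycle and N-glycosylation genes, 15 passed as lower and 6 as higher (9 and 12 without centring), with Stt3a, the catalytic subunit of an oligosaccharyltransferase, at -1.40, Gfpt1 at -1.30 and Dpm1, of the dolichol-phosphate-mannose synthase, at 2.78. For other translocon and signal peptide genes the counts were 11 lower and 6 higher of 21 (6 and 6 without centring), and Sec61g, the small subunit of the channel, rose from 23.99 ± 2.9 to 194 ± 3.71 TPM (2.73), while Srp54a (-2.29) and Ssr3 (-1.07) fell. Sequence shared with other genes was searched for members only, so the split of reads was not tested for these genes. Other ERAD genes gave 12 lower and 4 higher of 29 (8 and 13 without centring), with Ngly1 at -1.62 and Selenok at -1.01, and other ER folding genes 6 lower and 5 higher of 25 (5 and 11 without centring), with Fkbp14 at 1.17. Chaperones of cytosol and mitochondria, taken for comparison, passed as lower for 16 of 30 genes and as higher for 4 (8 and 10 without centring), with the heat shock genes Hspa1a (2.33) and Hspb1 (2.09) higher and Hspa4 (-1.34) lower.

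The subclones were compared with WT5 to see how far cells sorted a second time from a clone move away from it. By limma, 0 members were called in any of the 5 subclones, neither on the log2 scale, where the background over 13860 genes was 3.12%, 2.68%, 3.97%, 5.32% and 3.67% for subclones 1 to 5, nor by z-scores, where it was 0.152%, 0.144%, 0.173%, 0.202% and 0.173%. The largest log2 difference of a member was 0.96 (Derl3 in subclone 1). Unadjusted p-values were below 0.05 for 20 to 29 members per subclone on the log2 scale and for 18 to 27 by z-scores, and the unequal-variance test called 0 as well. As the share of all genes with such p-values is not given, these counts do not single out the members.

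Smaller differences passed in numbers. In subclone 1, 4 members passed as higher (12.1% of all genes did) and 12 as lower (14.3%). For subclone 2 the counts were 2 higher (13.2%) and 15 lower (14.5%), for subclone 3 they were 2 higher (8.88%) and 8 lower (9.74%), for subclone 4 they were 3 higher (19.9%) and 17 lower (17.2%), and for subclone 5 they were 4 higher (10.9%) and 2 lower (12.1%). The median difference of the members lay at -0.13, -0.17, -0.17 and -0.18 in subclones 1 to 4 and at -0.07 in subclone 5, with all-gene medians of 0.00, 0.00, 0.02, 0.03 and 0.01. These 5 comparisons share the WT5 libraries, and whatever the subclones have in common against WT5 cannot be told apart from the difference between the tables.

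Herpud1 passed as higher in each of the 5 subclones. It encodes an ER membrane protein that assembles the ERAD ligase complex, and it was at 57.7 ± 1.97 TPM in WT5 and at 83.1 ± 3.21, 70.5 ± 2.91, 78.1 ± 2.15, 84.3 ± 2.38 and 84.0 ± 3.53 TPM in subclones 1 to 5, the differences being 0.56, 0.34, 0.54, 0.64 and 0.65. Atf6b passed as lower in each of them, with differences of -0.22 to -0.29. Hyou1 passed as lower in subclones 1 to 4 (-0.50 to -0.57). Derl3 passed as higher in subclones 1, 2, 3 and 5, where it had 3.59 to 4.57 TPM against 2.41 TPM in WT5 and 11.1 ± 1.05 TPM in polyclonal cells. Xbp1 passed as lower in subclones 1 to 4 (-0.34 to -0.43), with 43.2 to 47.7 TPM. With 1 of the 8 libraries of a comparison left out, Atf6b no longer passed in 5, 8, 2 and 4 of 8 cases for subclones 1, 3, 4 and 5, Xbp1 in 7 of 8 for subclone 3, and Derl3 in 6 and 7 of 8 for subclones 3 and 5, with the same sign throughout, whereas Herpud1 and Hyou1 passed in every such case.

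Among the 5 subclones, which share a table, 18 of 36 members passed the F test of limma for any difference, where 24.3% of 14031 genes did. By the stricter rule, a range of the 5 means above 1, 0 members and 5.46% of all genes were called, with 25 members at an unadjusted p below 0.05. The 6 members with the smallest p were Edem1 (adjusted p = 2.86e-09), Sec61a1 (9.57e-09), Eif2ak3 (1.45e-08), Dnajb9 (1.66e-05), Hsp90b1 (2.05e-05) and Xbp1 (4.77e-05), with ranges of 0.74, 0.65, 0.95, 0.90, 0.50 and 0.46 between the highest and the lowest subclone.

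To find which subclone differed, each was set against the mean of the other 4. In subclone 1 there was 1 member that passed (4.51% of all genes), in subclone 2 there were 4 (5.81%) and in subclone 3 there was 1 (4.93%). In subclone 4, 3 members passed as higher (9.94%) and 5 as lower (7.93%). For subclone 5 the numbers were 12 higher (6.73%) and 2 lower (7.78%). The rule with a difference above 1 called 0 members in each, where the background was 0.919%, 0.934%, 0.955%, 1.9% and 1.39%, and 6, 14, 3, 20 and 20 members had an unadjusted p below 0.05. As each subclone is also among the others of the remaining 4 comparisons, these are not independent.

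**Figure D3:**
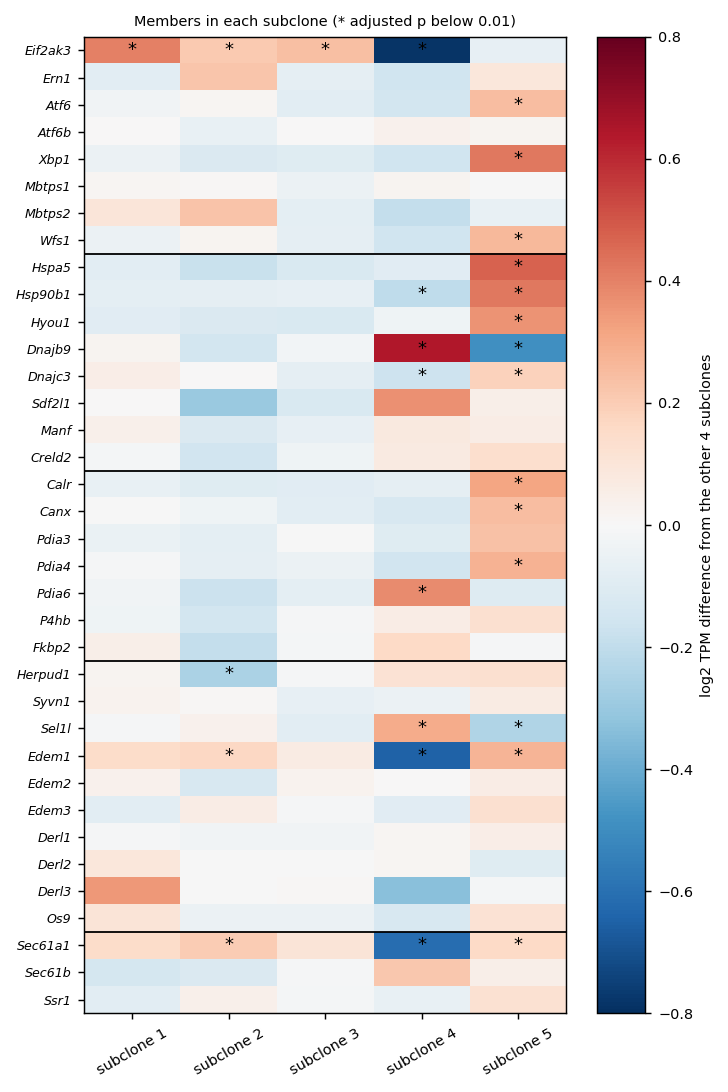
Difference of log2 TPM between each subclone and the mean of the other 4 (colour, red higher and blue lower) for all 36 members, with lines between the roles and a star where the adjusted p is below 0.01. The stars gather in subclone 5, mostly red, and in subclone 4, where Eif2ak3, Edem1 and Sec61a1 are the deepest blue and Dnajb9 the deepest red.

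Subclone 4 had the lowest values of the PERK kinase, of an ERAD mannosidase-like protein and of the channel subunit of the translocon. Eif2ak3 had 20.97, 24.1, 22.8 and 22.8 TPM there, and 26.8 to 48.4 TPM in the 16 libraries of the other subclones. Edem1 had 9.38, 10.7, 10.5 and 10.3 TPM against 12.6 to 18.4, and Sec61a1 74.0, 80.6, 79.6 and 77.5 TPM against 103 to 140. None of the 3 ranges overlaps, though the share of all genes with separate ranges is not given. The differences were -0.79 (SE 0.0482, adjusted p = 2.45e-09) for Eif2ak3, -0.65 (SE 0.0332, adjusted p = 2.74e-10) for Edem1 and -0.61 (SE 0.0338, adjusted p = 7.22e-10) for Sec61a1. These genes have different roles but lie on the same chromosome. By the GENCODE M21 annotation of GRCm38 they span chr6:70844515-70905245, chr6:108828641-108859356 and chr6:88503579-88518905.

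Their neighbours moved with them. Between 70 and 130 Mb of chromosome 6, limits that were set after the data had been seen, 236 of 320 genes that are no members passed as lower in subclone 4 and 6 as higher, with a median of -0.52. The first 2 bins of the chromosome were low as well (-0.53 and -0.51), and the last 2 were not (0.06 and 0.04). From 20 to 50 Mb the median was 0.00, from 50 to 70 Mb it was 0.36, and it was 0.02 on all chromosomes other than 6 and 12. Pdia4, at chr6:47796141-47813430 and thus outside the low stretch, differed by -0.15 (adjusted p = 0.0525). The median of the genes in the same 10-Mb bin was -0.57 for Eif2ak3, -0.53 for Sec61a1 and -0.45 for Edem1. With each gene centred on its bin, a setting chosen after seeing the data, the differences were -0.22 (adjusted p = 0.0273), -0.10 (adjusted p = 0.058) and -0.17 (adjusted p = 0.0256), and none passed.

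The 3 members that passed as higher in subclone 4 share chromosome 12. Dnajb9 had 40.1, 39.3, 39.6 and 39.5 TPM in subclone 4, under the 42.7 to 47.3 TPM of polyclonal cells and above the 19.6 to 32.1 TPM of the other subclones. It rose by 0.64 (SE 0.0755, adjusted p = 5.07e-06), Pdia6 by 0.38 (SE 0.0683) and Sel1l, the adaptor of the ERAD ligase, by 0.30 (SE 0.0576). They lie at chr12:44205559-44210326, chr12:17266545-17284770 and chr12:91806043-91849157. Of the 469 other genes tested on chromosome 12, 338 passed as higher and 7 as lower, with a median of 0.40, and the medians of its 10-Mb bins ran from 0.33 to 0.52. Centred on their bins, Dnajb9 differed by 0.15 (adjusted p = 0.0442), Pdia6 by -0.01 and Sel1l by -0.06. In the same setting 5 members passed in subclone 4, all of them lower, among them Hsp90b1 (-0.25), Dnajc3 (-0.29) and Xbp1 (-0.20). The other members that had passed without bin centring were Hsp90b1 (-0.20) and Dnajc3 (-0.16), on other chromosomes. For these genes the high subclone 5 is among the others. In subclone 4 and then subclones 1, 2, 3 and 5, Hsp90b1 had 413, 461, 458, 443 and 581 TPM. In the same order Dnajc3 had 18.4, 21.5, 20.8, 19.3 and 22.1 TPM, and Xbp1 43.2, 47.7, 45.4, 44.5 and 59.0 TPM. Here and below, the share of all genes that passed with bin centring is not given.

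**Figure D4:**
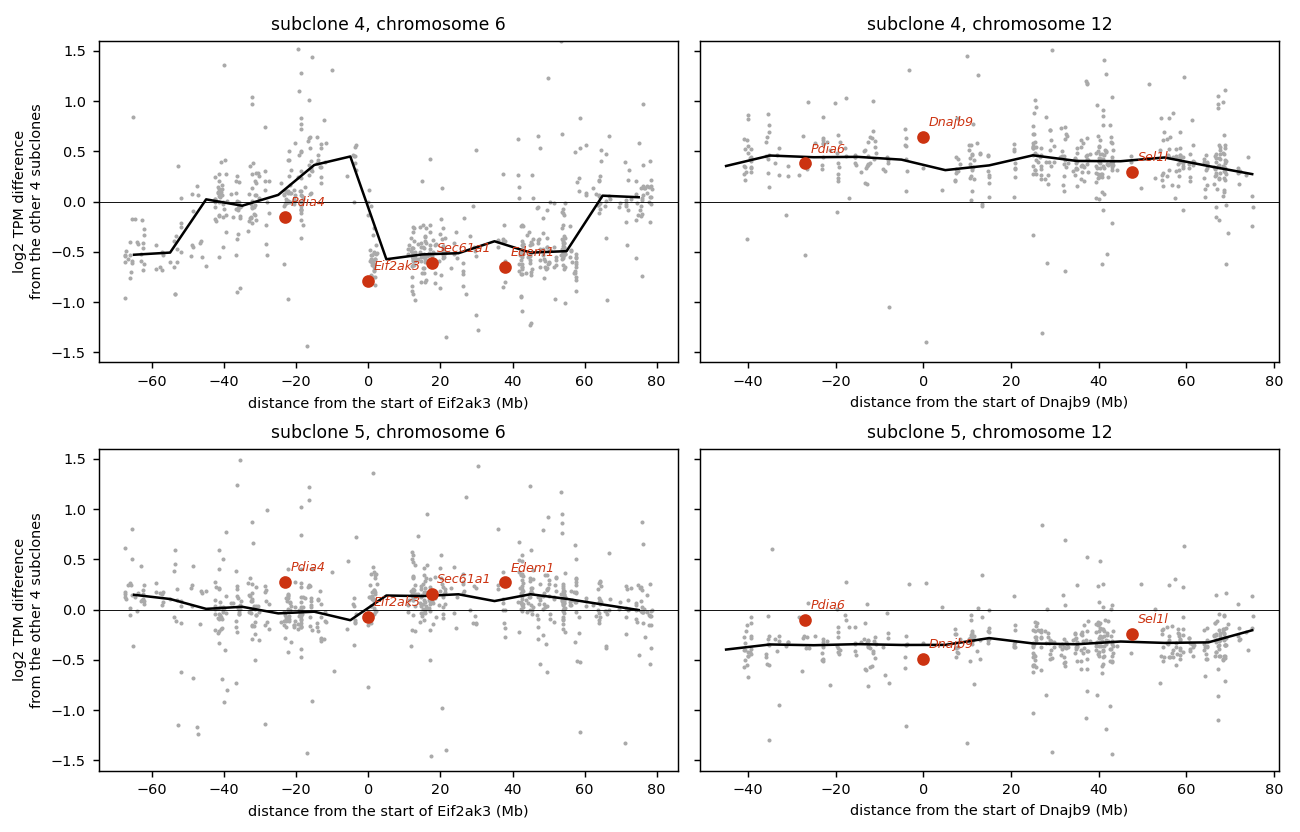
Difference of log2 TPM from the other 4 subclones (vertical axis) against distance in Mb from the start of Eif2ak3 on chromosome 6 (left) or of Dnajb9 on chromosome 12 (right), for subclone 4 (top) and subclone 5 (bottom); grey points are genes, black lines medians in windows of 10 Mb, red points members, and a few genes lie beyond the axis limits. In subclone 4 the line drops to about -0.5 where Eif2ak3, Sec61a1 and Edem1 lie and stays near 0.4 along chromosome 12, and in subclone 5 chromosome 12 stays near -0.3.

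In subclone 5, 7 of the 15 chaperone and isomerase genes passed as higher than in the other subclones and 1, Dnajb9, as lower. Hspa5 had 572, 519, 561 and 597 TPM there against 363 to 449 TPM in the 16 libraries of subclones 1 to 4. These ranges do not overlap, and the libraries of subclone 5 lay partly above the 501 to 531 TPM of WT5 and all under those of polyclonal cells. The difference was 0.47 (SE 0.0726, adjusted p = 0.000125). For Hsp90b1 the 4 libraries had 528, 573, 569 and 653 TPM against 392 to 498 in the others (difference 0.42, SE 0.0455, adjusted p = 3.03e-06). Xbp1, with 54.1, 58.8, 59.9 and 63.2 TPM, was above the 40.2 to 49.9 TPM of the other subclones (0.42, SE 0.048, adjusted p = 5.87e-06) and within reach of WT5, where it had 61.9 ± 2.6 TPM.

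By role, 4 of 8 BiP/GRP94 genes (also Hyou1 at 0.36 and Dnajc3 at 0.18), 3 of 7 lectin chaperones and isomerases (Calr 0.32, Pdia4 0.28 and Canx 0.25), 3 of 8 sensors (also Wfs1 at 0.26 and Atf6 at 0.24), Edem1 (0.27) and Sec61a1 (0.16) passed as higher in subclone 5. Without centring 6 of these 12 passed, and the other 6 kept their sign. For Edem1 and Sec61a1 the low subclone 4 is among the others. Sec61a1 had 119 TPM in subclone 5 and 123, 126, 115 and 77.9 TPM in subclones 1 to 4. Edem1 had 17.0 TPM in subclone 5 and 16.5, 16.6, 15.2 and 10.2 TPM in subclones 1 to 4. Of the 9 members with an ERSE, 5 passed as higher and 0 as lower, where 6.73% and 7.78% of all genes did. Of 7 tested ERSE genes outside the members 0 passed as higher and 1 as lower. The libraries of subclone 5 were unequal: its first replicate was the lowest for Eif2ak3 (26.8 TPM against 34.3 to 37.2) and Atf6 (16.0 against 19.6 to 22.7), and the fourth was the highest for Hspa5, Hsp90b1, Canx and Xbp1. With the fourth left out, Wfs1, Canx, Pdia4 and Sec61a1 no longer passed, and the other 8 did.

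In subclone 5, where 6.73% of all genes passed as higher and 7.78% as lower, the other lists differed. Among 25 other ER folding genes 7 passed as higher and 0 as lower, among 31 calnexin cycle and N-glycosylation genes 5 and 0, among 29 other ERAD genes 3 and 0, among 21 other translocon genes 0 and 0, and among 20 other UPR signalling genes 2 and 2. The PERK to ATF4 branch gave 8 and 2 of 23, and the chaperones of cytosol and mitochondria 8 and 1 of 30. Without centring these counts were 2 and 1 for the ER folding genes, 2 and 1 for the N-glycosylation genes, 8 and 3 for the PERK to ATF4 branch and 2 and 1 for the cytosolic and mitochondrial chaperones. Medians were 0.12 for the members, 0.14 for the ER folding genes, 0.12 for the cytosolic and mitochondrial chaperones and 0.00 for all genes.

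Dnajb9 and Sel1l were the 2 members that passed as lower in subclone 5. Dnajb9 had 21.6, 19.6, 21.9 and 20.9 TPM, under all 16 other subclone libraries (24.4 to 40.1 TPM), and fell by 0.49 (SE 0.0755, adjusted p = 0.000132), while Sel1l fell by 0.24. Chromosome 12, where both lie, had a median of -0.32 in subclone 5, with 280 of 469 genes lower and 5 higher, opposite to subclone 4. After centring on 10-Mb bins Dnajb9 differed by -0.11 (adjusted p = 0.153) and Sel1l by 0.07 (adjusted p = 0.292), whereas 10 of the 12 higher members still passed, among them Hspa5 (0.46, adjusted p = 0.000143), Hsp90b1 (0.45) and Xbp1 (0.45). Edem1 and Sec61a1, on the stretch of chromosome 6 that was low in subclone 4, were the ones that did not.

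**Figure D5:**
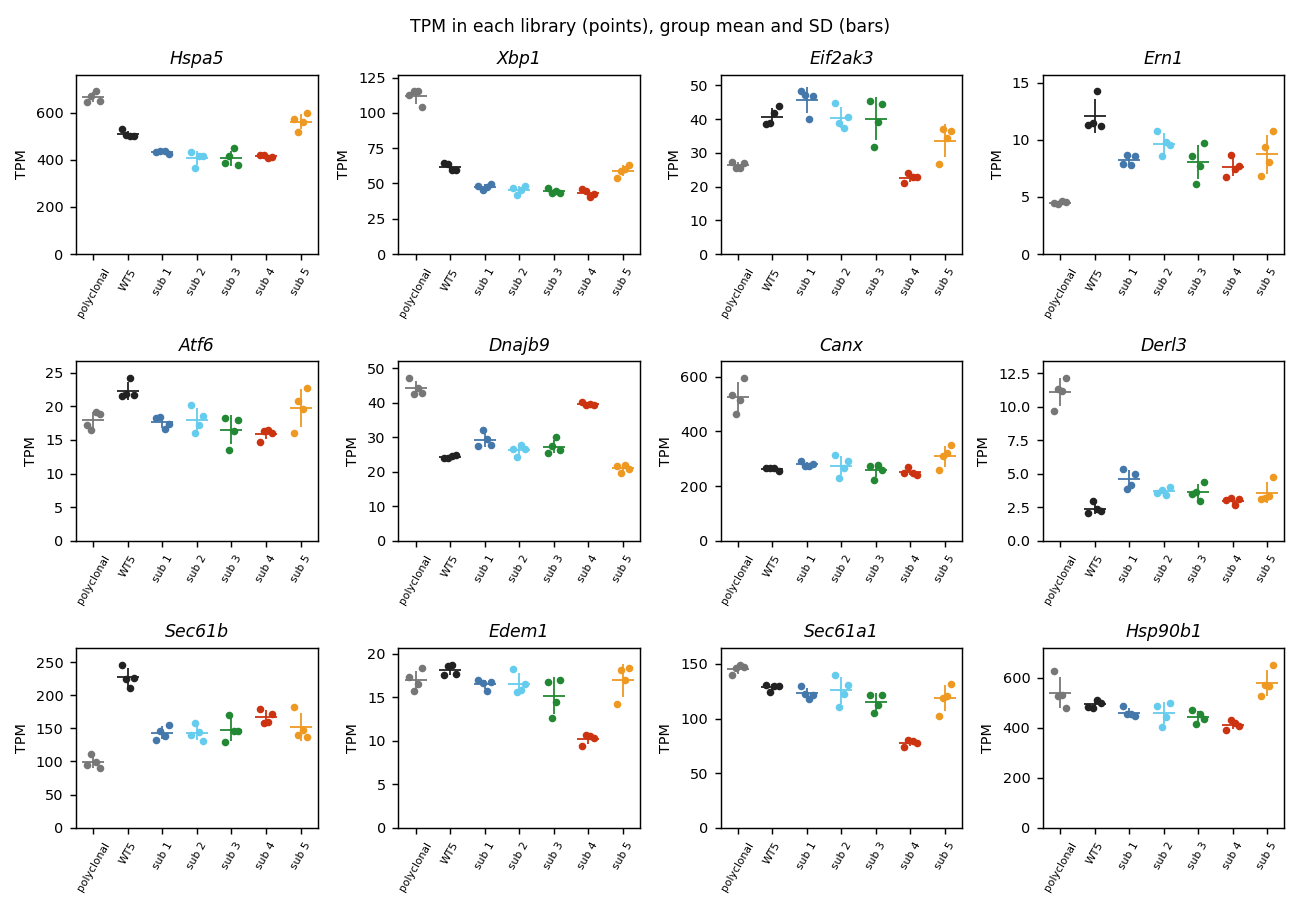
TPM of 12 members in each of the 28 libraries (points), with group means and SD, on axes that start at 0. Xbp1, Canx, Dnajb9 and Derl3 are highest in polyclonal cells, Ern1 and Sec61b are highest in WT5, Eif2ak3, Edem1 and Sec61a1 are lowest in subclone 4, and Hspa5, Hsp90b1 and Xbp1 are higher in subclone 5 than in the other subclones.

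In subclone 1, Eif2ak3 passed as higher by 0.41, and it also did so in subclone 2 (0.21) and subclone 3 (0.24), comparisons in which the low subclone 4 is among the others. Subclone 2 further had Edem1 (0.17) and Sec61a1 (0.20) higher and Herpud1 lower (-0.26). With bin centring, 0 members passed in subclones 1 and 3, and 1 in subclone 2, as lower.

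Across the 7 groups the named members fell into different orders. Canx had 526 ± 55.2 TPM in polyclonal cells and between 253 ± 12.8 and 309 ± 38.8 TPM in the 6 clonal lines, whose neighbours do not differ beyond their spread. Ern1 stood at 12.1 ± 1.49 TPM in WT5, at 7.64 ± 0.822 to 9.68 ± 0.919 TPM in the subclones, which overlap each other, and at 4.51 ± 0.114 TPM in polyclonal cells. Sec61b ran from 99.0 ± 8.69 TPM in polyclonal cells through 143 ± 9.62 to 167 ± 10.1 TPM in the subclones to 227 ± 14.5 TPM in WT5. Eif2ak3 was lowest in subclone 4 (22.7 ± 1.28 TPM), next in polyclonal cells (26.4 ± 0.895) and subclone 5 (33.7 ± 4.78), and between 40.2 ± 6.29 and 45.7 ± 3.75 TPM in WT5 and subclones 1 to 3, which overlap.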

How the data were processed

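RNA-seq of 28 libraries in 7 groups of 4 was deposited by the authors as TPM per Ensembl gene in a table for polyclonal WT and WT5 and a table for the subclones; per the labels and methods, reads were processed with CASAVA 1.8, aligned with STAR 2.7.3a and quantified with RSEM 1.3.1 on GRCm38 with Ensembl release 81. No read counts were used, so depth and counting error are unknown. Groups come from the sample labels. The members and gene lists were chosen with earlier results of these data known.

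Genes with a TPM above 0 in all 8 (WT5 and polyclonal), all 24 (WT5 and subclones) or all 20 (subclones) libraries were kept, log2 TPM was centred on the library median, and limma 3.58.1 (R 4.3.3) was run over all genes with Benjamini-Hochberg adjustment. WT5 and polyclonal cells were fitted alone, the subclones against WT5 in pairs, and the subclones together for the F test and each subclone against the mean of the others. Passed means an adjusted p below 0.01, called in addition an absolute difference above 1. The z-scores standardise log2 TPM within a library. Named members are Hspa5, Xbp1, Eif2ak3, Ern1 and Atf6, those called in WT5, the largest difference of each role and the 6 smallest F test p; from other lists, up to 3 called genes with the largest difference are named, while Atf4 and Ddit3 were chosen after their values were seen. The fits were tested on simulated data. Promoters are from RefSeq (GRCm38.p6), coordinates from GENCODE M21. Scripts ran in Python 3.11.15. Alternatives covered scaling, pseudocounts, filters, test, thresholds, replicate block and leaving out each library.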

Additional observations from a re-analysis of the deposited data

Results flagged for a closer look

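In groups of 4 libraries, 84 of which were checked over the 12 named members, 5 had a library whose gap to its nearest neighbour took a larger share of the group's range than Dixon's 95% critical value; the share is given for each. They were Hspa5 in WT5 replicate 1 (0.892, high), Ern1 in WT5 replicate 3 (0.925, high), Atf6 in WT5 replicate 3 (0.915, high), Derl3 in subclone 5 replicate 4 (0.861, high) and Sec61a1 in WT5 replicate 2 (0.84). Chance alone flags about 1 group in 20.

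Differences among the 5 subclones passed the F test for 9 of the named members, with ranges between the highest and lowest subclone mean, in log2 units, of 0.953 for Eif2ak3, 0.904 for Dnajb9, 0.737 for Edem1, 0.649 for Sec61a1, 0.518 for Hspa5, 0.501 for Hsp90b1, 0.463 for Xbp1, 0.315 for Atf6 and 0.298 for Canx.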

How the results depend on the processing

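Depth is unknown for TPM, so small differences of low genes such as Derl3 carry an error that the spread of 4 libraries alone describes. Of all recomputed values, 36 reversed. By setting these were 18 without a filter and with a pseudocount of 0.1, 8 with bin centring and 5 without centring. Rescaled TPM gave 2, leaving out a library 2 and quantile normalization 1. The cause was not tested. For WT5 against polyclonal cells, 5 members were called, against 3 without centring, 10 without a filter and with a pseudocount of 0.1, and 13 with differences above 0.5; by z-scores 0 were called and 1 at a mean TPM of at least 1. Without centring, Creld2 (0.23), Edem1 (0.10), Derl1 (0.051) and Os9 (0.0047) turned higher. Quantile normalization turned Creld2 (0.077), and rescaled TPM turned Atf6 (-0.029) and Syvn1 (-0.025). Without a filter, Hspa5 (0.25), Hsp90b1 (0.51), Dnajc3 (0.37), Sdf2l1 (0.26), Manf (0.61), Creld2 (0.86), Pdia3 (0.44), Pdia4 (0.029), Pdia6 (0.37), P4hb (0.18), Edem1 (0.73), Edem2 (0.60), Derl1 (0.68), Derl2 (0.60), Os9 (0.64), Sec61a1 (0.46) and Ssr1 (0.60) turned higher. Centring within 10-Mb bins, chosen after seeing the data, turned Wfs1 (-0.085), Derl1 (0.13), Edem1 (0.016), Creld2 (0.0039) and Syvn1 (-0.12). Leaving out a library moved Atf6 between -0.0043 and 0.052.

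Members that passed against WT5 numbered 16, 17, 10, 20 and 6 in subclones 1 to 5. The unequal-variance test gave 10, 8, 3 and 2 for subclones 1, 2, 3 and 5, a threshold of 0.05 gave 27, 16 and 13 for subclones 1, 3 and 5, no filter gave 7 and 3 for subclones 2 and 5, and all libraries in one fit gave 17 and 12 for subclones 3 and 5. Differences above 0.5 called 5, 5, 3, 7 and 2 members, and bin centring called 1 in subclone 1. Leaving out a library gave 10 to 13 members passed and 0 to 1 called (Derl3, without WT5 replicate 2 or subclone 1 replicate 2) in subclone 1, 10 to 15 passed in subclone 2 and 3 to 10 in subclone 3 (3 without WT5 replicate 1, 3 or 4). Xbp1 in subclone 5 reversed to -0.070 without centring and to -0.012 without a filter.

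Among the subclones, 18 members passed, and 10 without centring; 1 was called without centring and 1 without a filter, and 6 with differences above 0.5. Of 1, 4, 1, 8 and 14 members that passed in subclones 1 to 5 against the other 4, rescaled TPM gave 2 and a mean TPM of at least 1 gave 2 in subclone 1, a threshold of 0.05 gave 4, 7 and 17 in subclones 1, 2 and 4, no centring gave 1, 0 and 7 in subclones 2, 3 and 5, no filter gave 0 and 9 in subclones 3 and 5, bin centring gave 0, 1, 0 and 5 in subclones 1 to 4, and differences above 0.5 called 4 in subclone 4. Leaving out a library gave 1 to 3 in subclone 1, 2 to 5 in subclone 2 and 0 to 1 in subclone 3. With bin centring, Pdia6 (-0.0074) and Sel1l (-0.060) reversed in subclone 4 and Sel1l (0.069) in subclone 5.

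Replicate numbers did not pair the libraries, since no pair of groups had all 4 correlations above 0.1; with the replicate block, 20 members passed and 5 were called in WT5, and 2, 5, 1 and 2 passed in subclones 1, 2, 3 and 5 against WT5. Over all genes, 3190 were called in WT5, against 8908 without a filter and 6213 with differences above 0.5, and 8968 passed, against 16001 without a filter. For subclone 1 against WT5, 433 genes were called, against 140 with a pseudocount of 1, 275 with a mean TPM of at least 1, 238 with the unequal-variance test, 1290 with differences above 0.5, 253 with the replicate block, and 3665 genes passed, against 1986 with the unequal-variance test, 5949 with a threshold of 0.05, 999 with the replicate block. For subclone 2 against WT5, 372 genes were called, against 125 with a pseudocount of 1, 247 with a mean TPM of at least 1, 209 with the unequal-variance test, 559 with a threshold of 0.05, 1198 with differences above 0.5, and 3840 genes passed, against 2519 with no filter, 2207 with the unequal-variance test, 6120 with a threshold of 0.05, 1472 with the replicate block. For subclone 3 against WT5, 550 genes were called, against 195 with a pseudocount of 1, 359 with a mean TPM of at least 1, 238 with the unequal-variance test, 1429 with differences above 0.5, 283 with the replicate block, and 2581 genes passed, against 1135 with the unequal-variance test, 4864 with a threshold of 0.05, 558 with the replicate block, 4253 with all libraries in one fit. For subclone 4 against WT5, 738 genes were called, against 256 with a pseudocount of 1, 456 with a mean TPM of at least 1, 2186 with differences above 0.5. For subclone 5 against WT5, 509 genes were called, against 170 with a pseudocount of 1, 247 with the unequal-variance test, 1454 with differences above 0.5, and 3185 genes passed, against 1572 with the unequal-variance test, 5602 with a threshold of 0.05, 1307 with the replicate block. For the F test among the subclones, 766 genes were called, against 298 with a pseudocount of 1, 467 with a mean TPM of at least 1, 1956 with differences above 0.5. For subclone 1 against the other 4 subclones, 129 genes were called, against 36 with a pseudocount of 1, 61 with a mean TPM of at least 1, 286 with differences above 0.5, and 633 genes passed, against 1216 with a threshold of 0.05. For subclone 2 against the other 4 subclones, 131 genes were called, against 25 with a pseudocount of 1, 65 with a mean TPM of at least 1, 343 with differences above 0.5, and 815 genes passed, against 507 with no centring, 1486 with a threshold of 0.05. For subclone 3 against the other 4 subclones, 134 genes were called, against 22 with a pseudocount of 1, 65 with a mean TPM of at least 1, 323 with differences above 0.5, and 692 genes passed, against 450 with no centring, 1132 with a threshold of 0.05. For subclone 4 against the other 4 subclones, 267 genes were called, against 60 with a pseudocount of 1, 127 with a mean TPM of at least 1, 910 with differences above 0.5, and 2508 genes passed, against 3859 with a threshold of 0.05. For subclone 5 against the other 4 subclones, 195 genes were called, against 48 with a pseudocount of 1, 108 with a mean TPM of at least 1, 597 with differences above 0.5, and 2035 genes passed, against 3297 with a threshold of 0.05.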
